A study of Mus musculus with 12 samples.

Results

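The genes described here are 7 matrix metalloproteinases (Mmp2, Mmp3, Mmp9, Mmp10, Mmp11, Mmp13 and Mmp14) and 3 tissue inhibitors of metalloproteinases (Timp1, Timp2 and Timp3). They were chosen by name, and every probe set of a listed gene was taken. Each gene had exactly 1 probe set, so they are 10 of the 35512 probe sets deposited and 10 of the 19938 genes that could be named. The 12 samples, 1 Affymetrix array each, came from NIH3T3, a mouse fibroblast line that divides without limit, grown in medium with fetal bovine serum. The 4 groups of 3 arrays each were cells transfected with sirUBF oligo #1, cells transfected with sirUBF oligo #2, cells transfected with sirEGFP, an siRNA named for a gene of jellyfish origin, and Mock cells, which received the Dharmafect 2 reagent without siRNA. Both sirUBF siRNAs are directed against UBF, the nucleolar factor of RNA polymerase I transcription encoded by Ubtf. Each siRNA was given at 40 nM and RNA was taken at 48 h, and the design text calls the arrays of a group biological replicates. All groups received the reagent and share the replicate numbers 1 to 3, which name the arrays below. A value is a mean over the cells of a culture, so fewer cells with an mRNA and less of it per cell cannot be told apart.

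Matrix metalloproteinases are zinc-dependent proteases, mostly made as inactive proenzymes, that cut collagens, proteoglycans and other proteins outside the cell. Fibroblasts make several of them together with TIMPs, small proteins that bind and block the active site, so that turnover of matrix depends on both. MMP14 sits in the plasma membrane, and together with TIMP2 it activates proMMP2 at the cell surface. None of this protein activity was measured here, only mRNA.

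The promoters of the genes fell into separate kinds in sequence. RefSeq (GRCm38.p6) gave the bases before the gene start for 8 of the 10 genes, and Mmp2 and Mmp9 are named only. In the 250 bases before the start, TGAGTCA, the AP-1 motif read on both strands, was present in Mmp3, Mmp10 and Mmp13, and in 4.46% of all 32851 promoter windows of that length. The same 3 genes held TATAAA on the gene strand, which 7.59% of all windows held. The motif GGGCGG, the GC box read on both strands, was present in Mmp11, Mmp14, Timp1, Timp2 and Timp3, and in 32.7% of all windows. The motifs searched do not overlap one another in these windows. The 100 bases before the start are shown for the 3 genes with the AP-1 motif, and the 250 bases for Mmp14, Timp1 and Timp3, whose values the results turn on. Motif matches are in capitals, and each sequence runs 5′ to 3′ on the gene strand.
Mmp3, chr9:7445722-7445821, + strand: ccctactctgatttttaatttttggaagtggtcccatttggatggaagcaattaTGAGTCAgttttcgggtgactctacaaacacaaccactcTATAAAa
Mmp10, chr9:7502242-7502341, + strand: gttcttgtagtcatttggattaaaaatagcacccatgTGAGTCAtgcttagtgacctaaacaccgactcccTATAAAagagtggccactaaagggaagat
Mmp13, chr9:7272414-7272513, + strand: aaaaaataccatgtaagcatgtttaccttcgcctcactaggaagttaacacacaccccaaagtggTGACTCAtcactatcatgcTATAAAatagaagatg
Mmp14, chr14:54431348-54431597, + strand: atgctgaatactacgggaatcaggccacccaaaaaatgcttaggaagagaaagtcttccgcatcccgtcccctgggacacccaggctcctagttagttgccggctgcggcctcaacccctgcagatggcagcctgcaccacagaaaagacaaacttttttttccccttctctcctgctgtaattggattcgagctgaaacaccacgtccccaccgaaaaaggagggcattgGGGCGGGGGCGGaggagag
Timp1, chrX:20869916-20870165, + strand: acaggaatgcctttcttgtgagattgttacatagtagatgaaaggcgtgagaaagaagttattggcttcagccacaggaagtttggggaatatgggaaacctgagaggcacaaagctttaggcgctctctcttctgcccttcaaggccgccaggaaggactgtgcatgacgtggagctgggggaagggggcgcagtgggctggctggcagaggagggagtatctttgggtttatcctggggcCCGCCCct
Timp3, chr10:86300162-86300411, + strand: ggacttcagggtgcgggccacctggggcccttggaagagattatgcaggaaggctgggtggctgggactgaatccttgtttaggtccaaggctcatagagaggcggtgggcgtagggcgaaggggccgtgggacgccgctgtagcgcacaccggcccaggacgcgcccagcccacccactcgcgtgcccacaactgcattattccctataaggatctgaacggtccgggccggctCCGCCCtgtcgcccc

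The 3 genes with the AP-1 motif stood low and passed the test in none of the 7 comparisons. Of the 5 with a GC box, Mmp14 and Timp1 passed in at least 1 comparison of the main fit, which held no replicate block. Mmp11, Timp2 and Timp3 passed in none of that fit, and no test was made of motif against call. A match is a description of the letters and not a measured binding site.

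Ubtf, the targeted gene, stood at 7.998, 7.74 and 7.64 with oligo #1, at 7.90, 7.83 and 7.49 with oligo #2, at 8.68, 8.31 and 8.04 with sirEGFP and at 8.54, 8.63 and 8.41 in Mock cells (log2 values, arrays 1 to 3). All 6 knockdown arrays lay below all 6 control arrays. Against sirEGFP the log2 change was −0.55 ± 0.17 with oligo #1 (SE, limma, adjusted p = 0.107) and −0.61 ± 0.17 with oligo #2 (adjusted p = 0.0771), which did not pass the threshold of 0.05. These values are from the fit without a replicate block, and none with the block is given for Ubtf. Against Mock it passed with both, at −0.74 (adjusted p = 0.0252) and −0.79 (adjusted p = 0.0146). Of 10 fibroblast marker genes, 9 lay above the limit of the dimmest 25% of genes, a log2 value of 4.48. In those 25% lay 3 of 8 macrophage, 4 of 7 neutrophil, 2 of 6 endothelial, 2 of 6 epithelial and 1 of 6 chondrocyte and osteoblast markers, and none of these lists had a gene called for the mean of both siRNAs against sirEGFP. Between the siRNAs, oligo #1 minus oligo #2, 3.67% of all genes were called. The endothelial marker Cdh5 was called there at −0.96 (limma, adjusted p = 0.0176). So were the macrophage markers Csf1r at 0.80 (0.0081) and Lyz2 at 1.29 (0.0015), all named after their values were seen. Of the macrophage markers, Csf1r rose with oligo #1 against sirEGFP by 0.83 (adjusted p = 0.0087) and Lyz2 fell by 0.75 with oligo #2 against Mock (adjusted p = 0.0368), both named after their values were seen, while Adgre1, Ptprc and Itgam lay in the dimmest 25%. The mean log2 value of the 8 ran from 5.15 to 5.27 over the oligo #1 arrays, 4.83 to 5.13 over those of oligo #2, 4.95 to 5.06 over those of sirEGFP and 4.92 to 5.12 over those of Mock, and its part in the results was not tested. The arrays correlated with each other at 0.980 to 0.994 within groups and at 0.975 to 0.994 between groups over all genes. The largest single pattern of spread within groups, a principal component of the deviations from group means, held 41.5% of that spread. Its ends were array 2 of oligo #1 on one side and array 1 of oligo #1 and array 1 of sirEGFP on the other.

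The main fit held no replicate block. In it Mmp14 was the only one of the 10 genes to pass the test against sirEGFP, with oligo #1 and for the mean. Timp1 was the only one to pass against Mock in that fit, and it was lower with oligo #2. No gene of the 10 passed there for sirEGFP against Mock or for oligo #1 against oligo #2. A gene passed at an adjusted p under 0.05 from limma, adjusted over all 19938 genes. With oligo #1 against sirEGFP 1 of the 10 was called, where 2.47% of all genes were. With oligo #2 against sirEGFP 0 of the 10 were called, where 2.26% of all genes were, and for the mean of both 1 was, where 1.93% were. Against Mock the counts were 0 with oligo #1 (2.75% of all genes) and 1 with oligo #2 (4.25%). For sirEGFP against Mock limma called no gene at all (0.0%), and 3 of the 10 had an unadjusted p under 0.05, where 6.25% of all genes did. For oligo #1 against oligo #2 0 of the 10 were called, where 3.67% of all genes were. With replicate number as a block, 3 of the 10 passed for oligo #2 against sirEGFP (3.88% of all genes) and 2 for the mean (3.96%). In that fit 1 passed for oligo #1 against Mock (4.2%) and 1 for oligo #1 against oligo #2 (5.49%). The comparisons with sirEGFP share its 3 arrays, and those with Mock share the 3 Mock arrays.

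**Figure D1:**
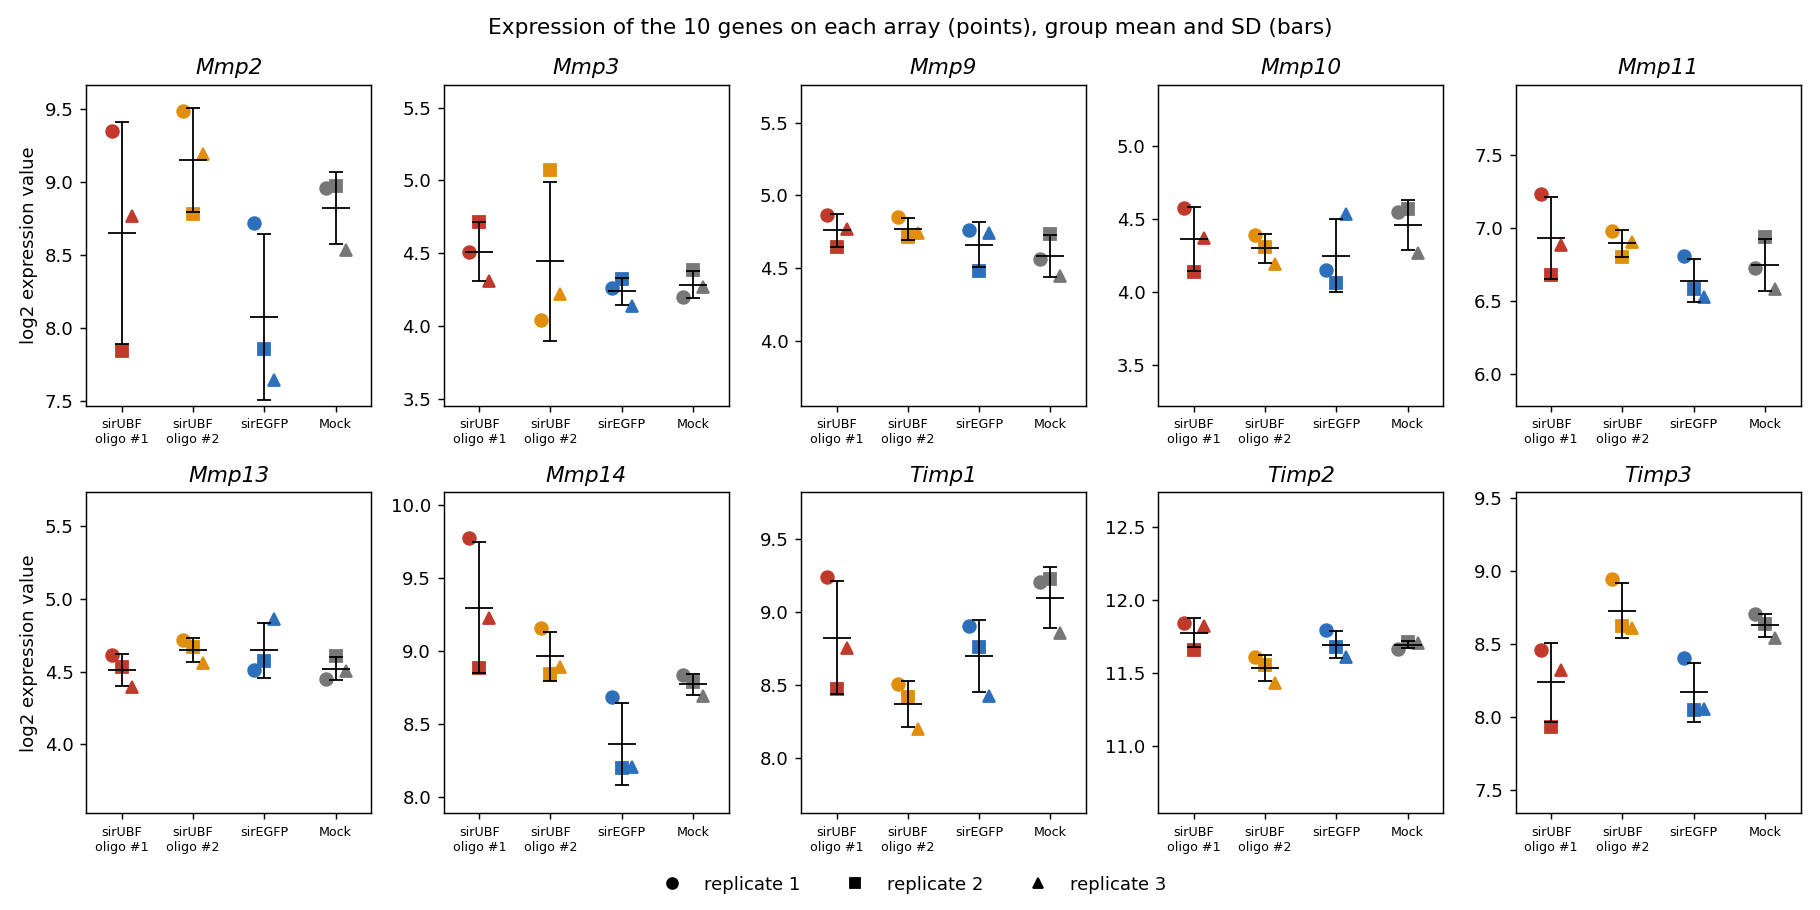
Log2 expression value of each of the 10 genes on each of the 12 arrays, by group; point shapes stand for replicate numbers, and black bars give the group mean and SD (n = 3). Every panel spans the same range of log2 units around its own middle. For Mmp14 all 6 knockdown arrays lie at or above 8.84, and Mmp2 has the widest spread within groups.

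Mmp14, the membrane-type protease that activates proMMP2, stood at 9.77, 8.88 and 9.22 with oligo #1, at 9.15, 8.84 and 8.89 with oligo #2, at 8.68, 8.20 and 8.20 with sirEGFP and at 8.84, 8.78 and 8.69 in Mock cells. All 6 knockdown arrays lay above all 6 control arrays, but the lowest knockdown array (8.843) cleared the highest control array (8.836) only narrowly. Mmp14 was the only one of the 10 with no overlap between 6 knockdown and 6 control arrays, which held for 2.12% of all genes. Against sirEGFP, Mmp14 rose 1.91-fold with oligo #1, a log2 change of 0.93 ± 0.19 (SE, limma, adjusted p = 0.0189). With oligo #2 the log2 change was 0.60 ± 0.19 (adjusted p = 0.144), and for the mean of both siRNAs Mmp14 rose by 0.77 ± 0.17 (adjusted p = 0.0313). The siRNAs differed by 0.33 for Mmp14, oligo #1 minus oligo #2, with a 95% interval of −0.08 to 0.75 (adjusted p = 0.490).

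Against Mock the Mmp14 changes were smaller, at 0.52 ± 0.19 with oligo #1 (limma, adjusted p = 0.219) and 0.19 ± 0.19 with oligo #2 (adjusted p = 0.776). The 3 sirEGFP arrays lay below the 3 Mock arrays for Mmp14, a log2 change of −0.41 (adjusted p = 0.801). In order of level Mmp14 ran from oligo #1 through oligo #2 and Mock to sirEGFP, and no step between neighbours in that order passed the test. The call of Mmp14 with oligo #1 against sirEGFP was lost without array 1 or 3 of oligo #1 (adjusted p = 0.0587 and 0.0592), without array 2 or 3 of sirEGFP (0.108 and 0.0913), and with only the arrays of the compared groups in the fit (0.136). That for the mean was lost without array 2 or 3 of sirEGFP (adjusted p = 0.204 and 0.180), array 3 of oligo #1 (0.0600), array 1 or 3 of oligo #2 (0.0704 and 0.0567), or with only the compared arrays (0.0770).

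Mmp2, gelatinase A, the protease that MMP14 activates, stood at 9.35, 7.84 and 8.77 with oligo #1, at 9.49, 8.78 and 9.19 with oligo #2, at 8.72, 7.86 and 7.64 with sirEGFP and at 8.96, 8.97 and 8.54 in Mock cells. The oligo #2 arrays lay above the sirEGFP arrays, whereas the oligo #1 arrays, the widest apart of any group, overlapped every other group. The log2 change of Mmp2 against sirEGFP was 1.08 ± 0.33 with oligo #2 (SE, limma, adjusted p = 0.115) and 0.58 ± 0.33 with oligo #1 (adjusted p = 0.500). Against Mock it was 0.33 with oligo #2 (adjusted p = 0.766) and −0.17 with oligo #1 (adjusted p = 0.905). Mmp2 in sirEGFP cells differed from Mock by −0.75 (adjusted p = 0.781), the lowest change of the 10 genes in that comparison. In order of level Mmp2 ran from oligo #2 through Mock and oligo #1 to sirEGFP, and no step passed. With the mean of sirEGFP and Mock as the control, the Mmp2 change was 0.71 with oligo #2 (adjusted p = 0.215) and 0.46 for the mean of both siRNAs, against 0.83 with sirEGFP alone.

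For oligo #2 against sirEGFP, arrays of the same number deviated together from their group means, and the fit with replicate number as a block changed 3 calls. In that fit Mmp2 (limma, adjusted p = 0.0174), Mmp14 (0.0256) and Timp3 (0.0174) passed, 3 of the 10 genes, where 3.88% of all genes were called. The same 3 genes lay wholly above the sirEGFP arrays with oligo #2 and Timp2 wholly below, so 4 of the 10 did not overlap, where 18.5% of all genes did not. Over all genes, 773 were called with the block and 451 without it.

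**Figure D2:**
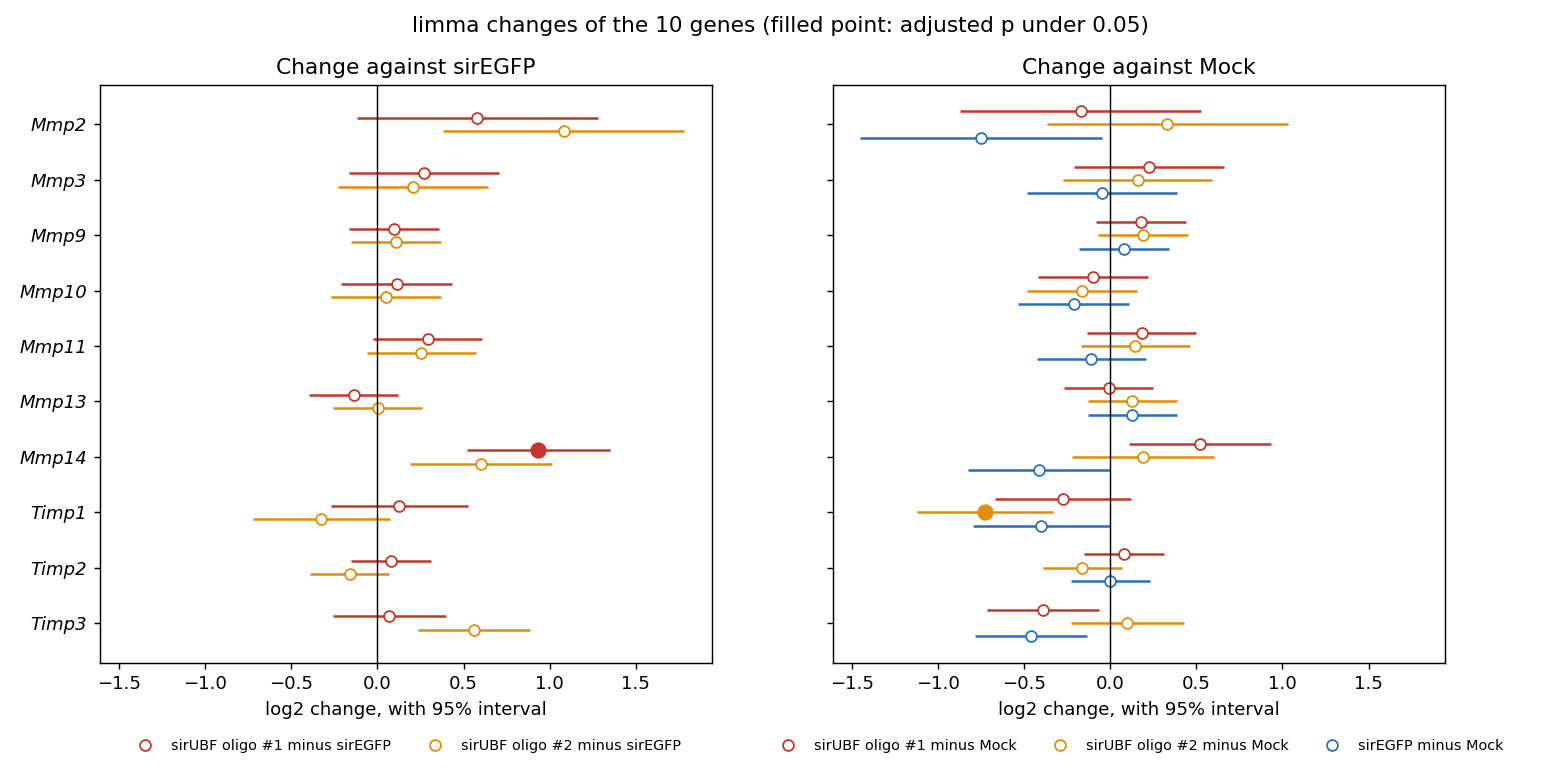
Changes of the 10 genes on the log2 scale with 95% intervals from limma, against sirEGFP on the left and against Mock on the right; filled points had an adjusted p under 0.05. Mmp14 with oligo #1 against sirEGFP and Timp1 with oligo #2 against Mock are the filled points, and sirEGFP minus Mock lies below 0 for 7 of the 10 genes, with no filled point. Of all genes, 54.7% lay above 0 for sirEGFP minus Mock.

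Mmp9, gelatinase B, stood between 4.45 and 4.87 on all 12 arrays. Its changes against sirEGFP were 0.10 ± 0.12 with oligo #1 and 0.11 ± 0.12 with oligo #2 (SE, limma, adjusted p = 0.841 and 0.815). The 95% intervals ran from −0.16 to 0.36 and from −0.15 to 0.37. A change of the Mmp9 array value beyond 1 log2 unit lies outside both. However, the mean of Mmp9 over the 12 arrays was 4.69, close to the limit of the dimmest genes at 4.48. The deposited values do not show signal over background, so these intervals set no limit on the change of Mmp9 mRNA.

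Mmp3 and Mmp10, the stromelysins 1 and 2, which cut proteoglycans and fibronectin, had a mean below the limit of the dimmest 25%. Mmp3 stood at 4.51, 4.71 and 4.31 with oligo #1, at 4.04, 5.07 and 4.22 with oligo #2, at 4.26, 4.32 and 4.14 with sirEGFP and at 4.20, 4.39 and 4.27 in Mock cells. Array 2 of oligo #2 was the highest of the 12 and array 1 of oligo #2 the lowest. The change of Mmp3 for the mean of both siRNAs against sirEGFP was 0.24 ± 0.18 (SE, limma, adjusted p = 0.656). Mmp10 stood between 4.06 and 4.58 on the 12 arrays, and its change in the same comparison was 0.08 ± 0.13 (adjusted p = 0.888).

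Mmp11, stromelysin 3, which unlike most of the family leaves the cell already active, stood at 7.23, 6.68 and 6.88 with oligo #1, at 6.98, 6.80 and 6.90 with oligo #2, at 6.81, 6.58 and 6.53 with sirEGFP and at 6.73, 6.94 and 6.58 in Mock cells. Arrays 2 and 3 of sirEGFP and array 3 of Mock lay below all knockdown arrays, and the other control arrays overlapped them. Its change was 0.29 ± 0.15 with oligo #1 (SE, limma, adjusted p = 0.425) and 0.25 ± 0.15 with oligo #2 (adjusted p = 0.535) against sirEGFP. Against Mock the Mmp11 changes were 0.18 and 0.15 (adjusted p = 0.708 and 0.776).

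Mmp13, the collagenase of this set, stood between 4.39 and 4.86, and the highest value was array 3 of sirEGFP. Its changes against sirEGFP were −0.14 ± 0.12 with oligo #1 and 0.00 ± 0.12 with oligo #2 (SE, limma, adjusted p = 0.738 and 0.997). Mmp13, Mmp3 and Mmp10 belong to a run of 10 neighbouring metalloproteinase genes on chromosome 9 in the RefSeq order, with Mmp12, Mmp1b, Mmp1a, Mmp8, Mmp27, Mmp20 and Mmp7. All 10 were measured, 7 of them in the dimmest 25%, and none was called in any of the 7 comparisons. Their changes for the mean of both siRNAs against sirEGFP ran from −0.17 for Mmp27 to 0.24 for Mmp3, with a median of −0.068, where the median of all genes was 0.0077.

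Timp1, a secreted inhibitor of most metalloproteinases, stood at 9.24, 8.48 and 8.76 with oligo #1, at 8.50, 8.42 and 8.20 with oligo #2, at 8.91, 8.76 and 8.42 with sirEGFP and at 9.21, 9.23 and 8.86 in Mock cells. The oligo #2 arrays lay below all 3 Mock arrays, while the oligo #1 arrays overlapped all other groups. Timp1 fell by 0.73 on the log2 scale with oligo #2 against Mock, to 0.605 of the Mock level (SE 0.19, limma, adjusted p = 0.0395). With oligo #1 the change against Mock was −0.27 (adjusted p = 0.622), and in sirEGFP cells it was −0.40 (adjusted p = 0.793). Against sirEGFP the Timp1 changes were 0.13 with oligo #1 (adjusted p = 0.867) and −0.33 with oligo #2 (adjusted p = 0.522). The siRNAs differed by 0.45, oligo #1 minus oligo #2, with a 95% interval of 0.06 to 0.85 (adjusted p = 0.258).

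In order of level Timp1 ran from Mock through oligo #1 and sirEGFP to oligo #2, and no step between neighbours passed. The call against Mock was lost when any of 7 of the 12 arrays was left out. These were each array of oligo #2 (limma, adjusted p = 0.0692, 0.102 and 0.170 without arrays 1, 2 and 3), arrays 1 and 2 of Mock (0.165 and 0.155), array 2 of sirEGFP (0.0568) and array 3 of oligo #1 (0.0593).

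Timp2, the inhibitor that also takes part in proMMP2 activation, stood at 11.84, 11.66 and 11.82 with oligo #1, at 11.61, 11.55 and 11.43 with oligo #2, at 11.80, 11.68 and 11.61 with sirEGFP and at 11.66, 11.71 and 11.71 in Mock cells. The oligo #2 arrays lay below those of every other group, the highest of them and the lowest sirEGFP array both rounding to 11.61. Its change was −0.16 ± 0.11 with oligo #2 (SE, limma, adjusted p = 0.612) and 0.08 ± 0.11 with oligo #1 (adjusted p = 0.855) against sirEGFP. The siRNAs differed by 0.24, oligo #1 minus oligo #2, with a 95% interval of 0.01 to 0.47 (adjusted p = 0.319).

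Timp3, the inhibitor that binds to the matrix and also blocks ADAM17, stood at 8.46, 7.93 and 8.32 with oligo #1, at 8.94, 8.63 and 8.61 with oligo #2, at 8.40, 8.05 and 8.06 with sirEGFP and at 8.70, 8.64 and 8.54 in Mock cells. The oligo #2 and Mock arrays overlapped each other and lay above all oligo #1 and sirEGFP arrays, which also overlapped each other. The log2 change against sirEGFP was 0.56 ± 0.15 with oligo #2 (SE, limma, adjusted p = 0.0771) and 0.07 ± 0.15 with oligo #1 (adjusted p = 0.918). With the mean of sirEGFP and Mock as the control the oligo #2 change was 0.33 (adjusted p = 0.215). Against Mock, Timp3 differed by 0.10 with oligo #2 (adjusted p = 0.871), by −0.39 with oligo #1 (adjusted p = 0.256) and by −0.46 in sirEGFP cells (adjusted p = 0.714).

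Between the siRNAs Timp3 differed by −0.49 ± 0.15, oligo #1 minus oligo #2, with a 95% interval of −0.82 to −0.16 (SE, limma, adjusted p = 0.104). With replicate number as a block, Timp3 passed in this comparison (adjusted p = 0.0274), the 1 of the 10 genes to do so, where 5.49% of all genes were called. Timp3 and Timp2 were the 2 of the 10 whose oligo #1 and oligo #2 arrays did not overlap, where 18.3% of all genes did not.

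**Figure D3:**
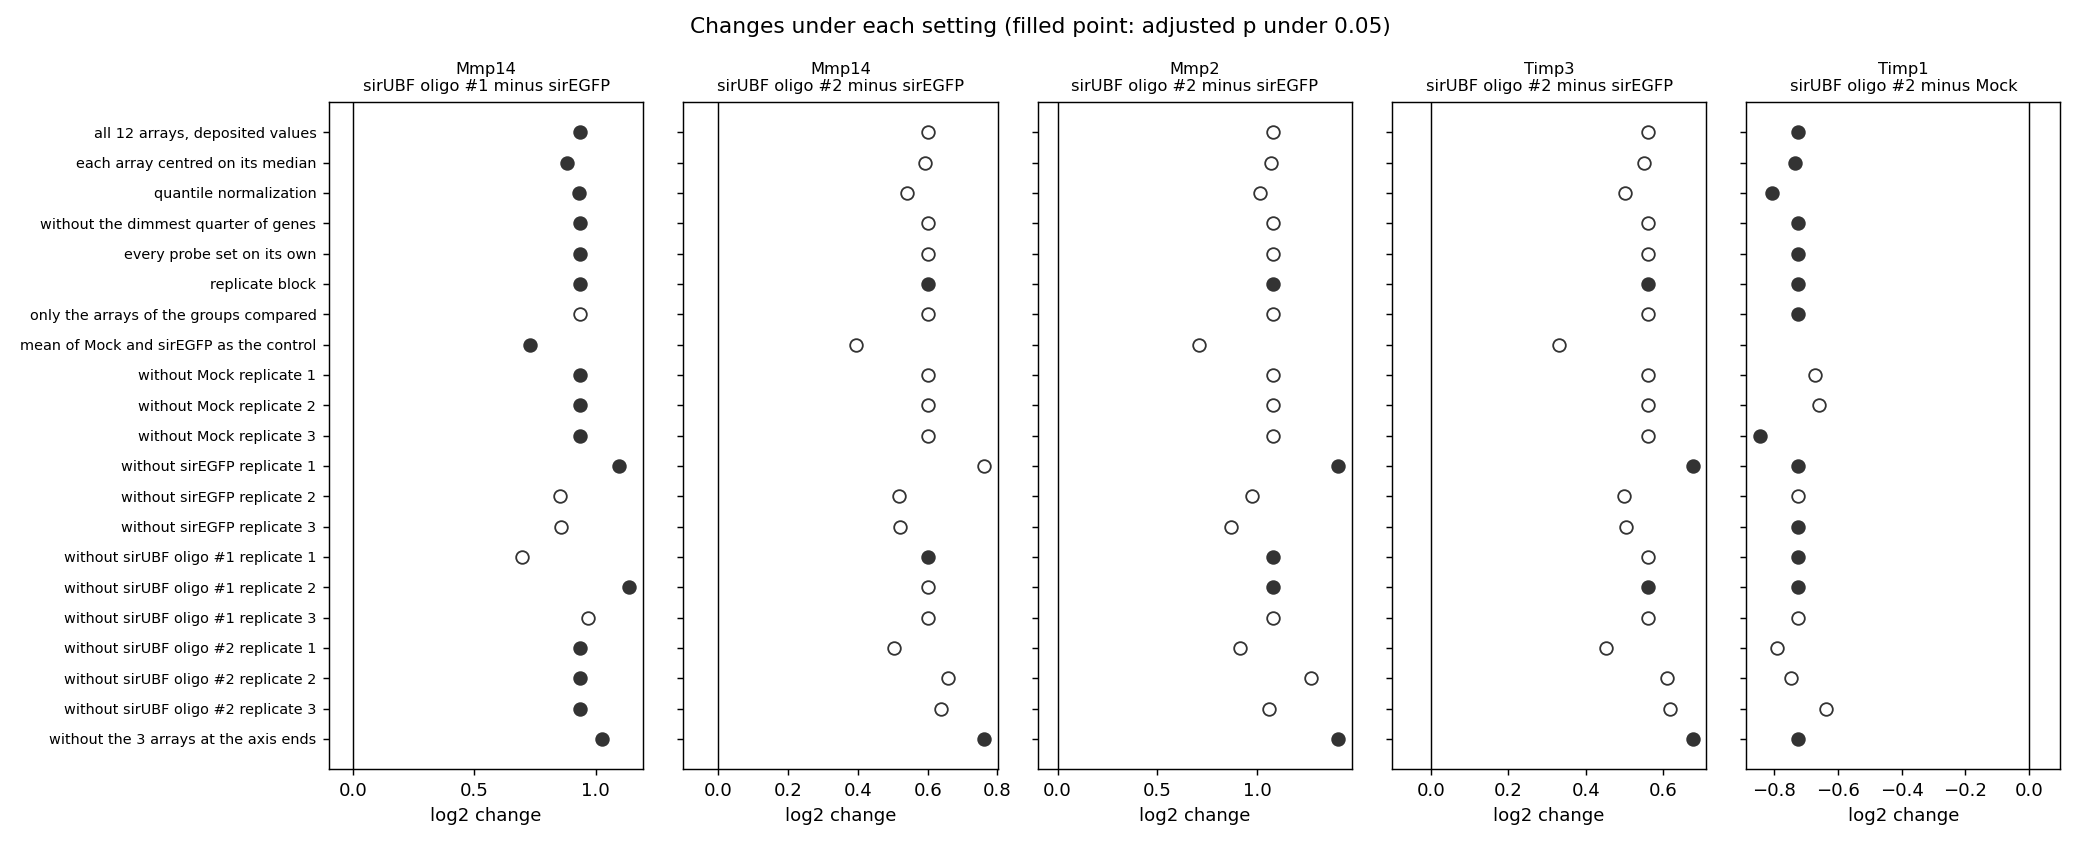
Log2 change of Mmp14, Mmp2, Timp3 and Timp1 in 5 comparisons (columns) under each way of fitting (down the page); filled points had an adjusted p under 0.05. All points lie on the same side of 0 within a column, while the calls come and go, as for Mmp14 with oligo #1, where they were lost in 5 settings. Where the 3 end arrays are left out, oligo #1 has 1 array.

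The median change of the 10 genes was 0.12 with oligo #1 and 0.16 with oligo #2 against sirEGFP, where the medians of all genes were 0.022 and −0.0077. Of the 10 changes 9 and 8 were above 0, where 55.1% and 48.3% of all genes were. Against Mock the medians were 0.036 with oligo #1 and 0.14 with oligo #2, where those of all genes were 0.043 and 0.0082. Here 5 and 7 of the 10 were above 0, where 59.9% and 52.0% of all genes were. For sirEGFP against Mock the median was −0.16, where that of all genes was 0.018, and 3 of the 10 were above 0 (54.7% of all genes). The number with an unadjusted p under 0.05 was 1, 3, 2 and 1 of the 10 in the first 4 of these comparisons, where 13.4%, 12.9%, 13.2% and 15.2% of all genes had one. Mmp14 alone had all 6 knockdown arrays above the 3 sirEGFP arrays, and no gene of the 10 had all 6 below them, where 5.02% of all genes did one or the other. Mmp14 was also the 1 of the 10 whose oligo #1 and sirEGFP arrays did not overlap (15.5% of all genes). Against Mock, 2 did not overlap with oligo #1, Mmp14 above and Timp3 below (16.5%), and 3 did not with oligo #2, Mmp14 above and Timp1 and Timp2 below (21.6%). The sirEGFP arrays lay wholly below the Mock arrays for 2, Mmp14 and Timp3 (10.7% of all genes did not overlap).

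Within groups, several of the genes went up and down together from array to array. Array 1 of oligo #1 held the highest value of its group for 9 of the 10 genes and array 2 the lowest for 8. Array 1 of oligo #2 was the highest of its group for 9 genes, array 1 of sirEGFP for 7, and array 2 of Mock for 8. Over the 12 arrays, deviations from the group mean correlated at 0.95 between Mmp2 and Mmp14, at 0.94 between Mmp2 and Timp3 and at 0.93 between Mmp14 and Timp3 (Pearson's r, a description over arrays that share their groups). The same deviations correlated with the array scores on the main pattern of spread over all genes at −0.98 for Mmp2, −0.97 for Mmp14, −0.95 for Timp3, −0.92 for Mmp11, −0.88 for Timp1 and −0.84 for Timp2. For Mmp9, Mmp10, Mmp3 and Mmp13 the values were −0.66, −0.36, 0.32 and 0.12. The spread of Mmp2 and Mmp14 within groups thus ran along a pattern shared by many other genes, and its part in the differences between groups was not tested.

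A fit without the 3 arrays at the ends of that pattern was chosen after the data had been seen. It left 1 array of oligo #1, 2 of sirEGFP and 3 each of oligo #2 and Mock. The arrays were picked along a pattern that Mmp2, Mmp14 and Timp3 themselves follow, and array 1 of sirEGFP was the highest of its group for all 3, so their smaller spread and larger changes follow in part from the choice, and the p-values are a description only. For Mmp14 the 1 array of oligo #1 stood 1.03 above the 2 of sirEGFP (limma, adjusted p = 0.0189, with the lone array assumed to vary like the other groups), the 1 of the 10 genes called, where 1.28% of all genes were. With oligo #2 against sirEGFP the changes of Mmp14, Mmp2 and Timp3 were 0.76 (adjusted p = 0.0055), 1.404 (0.0013) and 0.68 (0.0123), 3 of the 10 called, where 5.26% of all genes were called. Timp1 with oligo #2 against Mock stood at −0.73 (adjusted p = 0.0092), the 1 of the 10 called there, where 6.59% of all genes were.

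**Figure D4:**
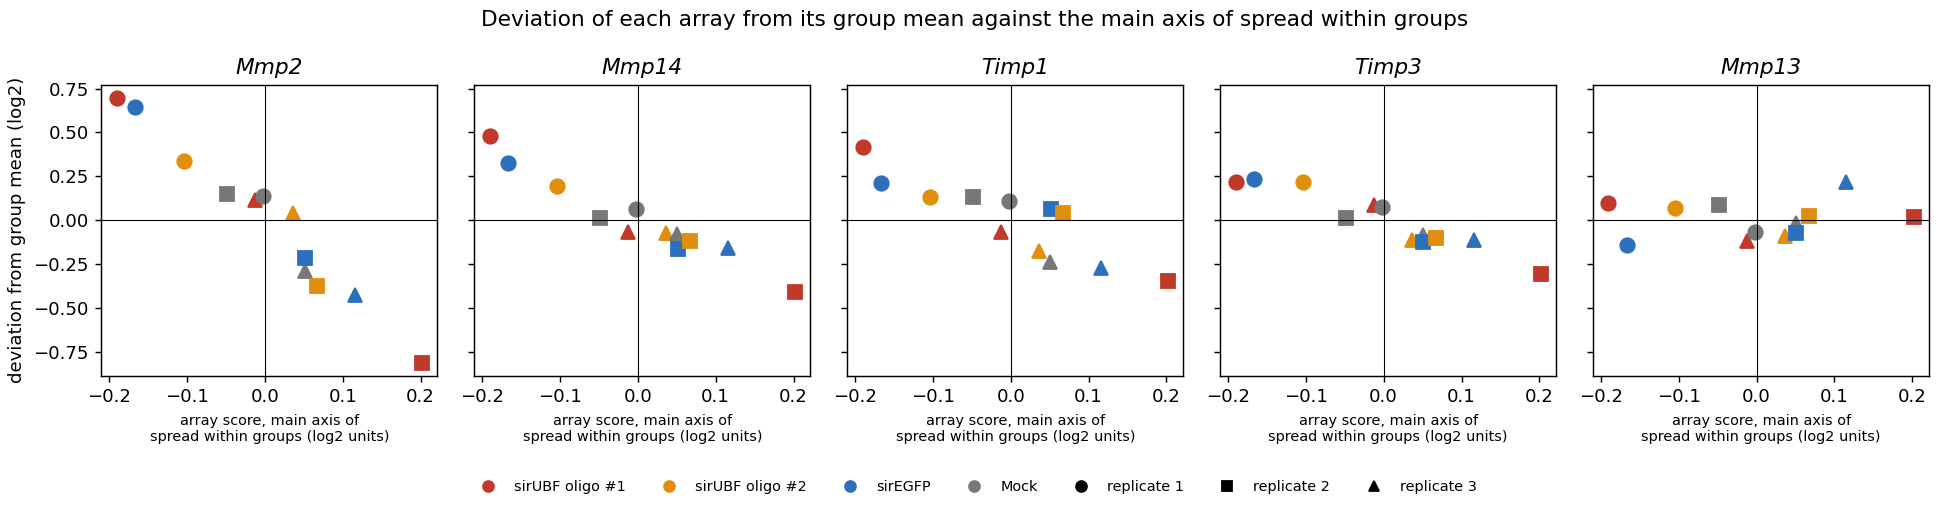
Deviation of each array from its group mean (log2, vertical) against its score on the main pattern of spread within groups over all genes (log2 units, horizontal), for Mmp2, Mmp14, Timp1, Timp3 and Mmp13; colours give the group and shapes the replicate. The points of Mmp2, Mmp14, Timp1 and Timp3 fall along a line with r between −0.98 and −0.88, and those of Mmp13 do not (r = 0.12).

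Over the 12 arrays, the genes most like Mmp2 were Psrc1, Kirrel and P4ha3 (Pearson's r of 0.987, 0.986 and 0.978). Those most like Mmp14 were Plekhm1, Arsb and Tns2 (0.963, 0.961 and 0.959), and those most like Timp1 were Dhrs7b, Htra2 and Jpt1 (0.974, 0.953 and 0.952). They were taken from 2813 genes with an SD of at least 0.3 over the arrays, and the correlations mix the spread within groups with that between them.

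Of 17 other metalloproteinases and inhibitors measured from a list of 18, 1 was called higher and 0 lower for the mean of both siRNAs against sirEGFP, with a median change of 0.065. Of all genes, 1.21% were called higher and 0.722% lower in that comparison, and 13.2% had an unadjusted p under 0.05. The gene was Mmp19, a secreted metalloproteinase, which stood at 7.04, 6.42 and 6.70 with oligo #1, at 7.33, 6.76 and 6.91 with oligo #2, at 6.23, 5.69 and 5.62 with sirEGFP and at 6.49, 6.28 and 6.30 in Mock cells. All 6 knockdown arrays lay above the sirEGFP arrays, and array 1 of Mock lay above the lowest of them. Mmp19 rose by 1.01 ± 0.17 for the mean (SE, limma, adjusted p = 0.0054), by 0.87 with oligo #1 (0.0269) and by 1.15 with oligo #2 (0.0046) against sirEGFP. Against Mock its changes were 0.36 and 0.64 (adjusted p = 0.470 and 0.0791). Without array 2 or 3 of sirEGFP the call for the mean was lost (adjusted p = 0.0528 and 0.0501), and that with oligo #1 was lost in 4 of 12 fits without 1 array, with only the compared arrays (limma, adjusted p = 0.122) and with the mean of sirEGFP and Mock as the control (0.0533). Reck, a membrane-anchored inhibitor of metalloproteinases, changed by 0.26 for the mean (adjusted p = 0.500) and was higher with oligo #2 against Mock at 0.68 (adjusted p = 0.0345), a call lost in 7 of 12 such fits. Mmp27 changed by −0.17 (adjusted p = 0.634).

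Of 11 ADAM proteases, which shed proteins from the cell surface, 0 passed for the mean against sirEGFP (median 0.030), and 3 had an unadjusted p under 0.05, where 13.2% of all genes did. Adam17, the enzyme that TIMP3 blocks and that was named after its values were seen, stood at 7.33, 7.64 and 7.61 with oligo #1, at 8.74, 8.65 and 8.67 with oligo #2, at 8.37, 8.31 and 8.14 with sirEGFP and at 7.79, 7.98 and 8.09 in Mock cells. The oligo #1 arrays lay below and the oligo #2 arrays above all 6 control arrays. Adam17 fell by 0.74 with oligo #1 against sirEGFP (SE 0.12, limma, adjusted p = 0.0054), and its change with oligo #2 was 0.42 (adjusted p = 0.107). Against Mock it rose by 0.73 with oligo #2 (adjusted p = 0.0040), and its change with oligo #1 was −0.43 (adjusted p = 0.0912). The siRNAs differed by −1.16 ± 0.12, oligo #1 minus oligo #2 (adjusted p = 0.00018), a call kept in each of the 12 fits without 1 array. The call with oligo #1 against sirEGFP was lost with only the compared arrays (adjusted p = 0.0563).

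Adam10, a second sheddase, rose against Mock by 0.62 with oligo #1 and 0.93 with oligo #2 (limma, adjusted p = 0.0072 and 0.00040), while against sirEGFP its changes were 0.08 and 0.39 (adjusted p = 0.869 and 0.101). In sirEGFP cells Adam10 differed from Mock by 0.55 (adjusted p = 0.521). Adam22 and Adam15 changed by 0.28 and 0.35 for the mean against sirEGFP (adjusted p = 0.216 and 0.268). Of 18 ADAMTS proteases, which cut proteoglycans and procollagens, 0 passed and 0 had an unadjusted p under 0.05, and Adamts7, Adamts5 and Adamts1 changed by 0.22, 0.35 and 0.30.

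Of 10 genes of plasminogen activation, whose product plasmin can activate prometalloproteinases, 1 was called higher and 0 lower for the mean. Of all genes, 1.21% were called higher in that comparison. Plat, the tissue-type activator, stood at 7.34, 6.46 and 7.23 with oligo #1, at 7.34, 6.65 and 7.04 with oligo #2, at 6.56, 5.72 and 5.74 with sirEGFP and at 6.42, 6.19 and 6.47 in Mock cells. The knockdown and control arrays overlapped only through array 2 of oligo #1, which lay below array 1 of sirEGFP and array 3 of Mock. Plat rose by 1.01 ± 0.22 (SE, limma, adjusted p = 0.0292), a call lost in 5 of 12 fits without 1 array, and with only the compared arrays (0.0730). Against Mock its change was 0.65 with each siRNA (adjusted p = 0.245 and 0.199).

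Plau, the urokinase, stood at 7.67, 7.17 and 7.20 with oligo #1, at 8.37, 7.91 and 8.29 with oligo #2, at 7.37, 7.28 and 6.78 with sirEGFP and at 7.63, 7.31 and 7.11 in Mock cells. The oligo #2 arrays lay above all others, and the oligo #1 arrays overlapped both controls. Plau rose by 1.05 with oligo #2 against sirEGFP and by 0.84 against Mock (limma, adjusted p = 0.0095 and 0.0241), and its changes with oligo #1 were 0.20 and 0.00 (0.758 and 0.997). The call against sirEGFP was lost in 3 and that against Mock in 4 of the 12 fits without 1 array. Plaur, the urokinase receptor, changed by −0.37 for the mean (adjusted p = 0.614).

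Of 12 cathepsins and related genes, 0 passed for the mean (median 0.16), and 3 had an unadjusted p under 0.05, against 13.2% of all genes. Ctsd, Ctsb and Ctsz, lysosomal proteases, changed by 0.61, 0.60 and 0.49 (limma, adjusted p = 0.137, 0.184 and 0.282). Of 15 activators and surface partners of metalloproteinases, 0 passed (median 0.12), and 4 had an unadjusted p under 0.05, against the same 13.2%. Lrp1, a receptor that takes up metalloproteinases, changed by 0.90 ± 0.26 (adjusted p = 0.0984), Cd151 by 0.68 (0.335) and Thbs2 by 0.40 (0.269).

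Of 14 transcription factors with known sites in metalloproteinase promoters, 1 was called higher and 0 lower for the mean, where 1.21% of all genes were called higher. Stat3 stood at 7.88, 7.31 and 7.57 with oligo #1, at 8.14, 7.79 and 7.55 with oligo #2, at 7.24, 6.87 and 6.75 with sirEGFP and at 6.80, 6.85 and 6.92 in Mock cells, so all 6 knockdown arrays lay above all 6 control arrays. Stat3 rose by 0.75 ± 0.15 for the mean (SE, limma, adjusted p = 0.0200), a call lost without array 2 or 3 of sirEGFP (0.138 and 0.142) and with only the compared arrays (0.0537). Against sirEGFP its change with oligo #1 was 0.64 (adjusted p = 0.0778), which did not pass. With oligo #2 it was 0.87 (0.0152), a call lost in 4 of 12 fits without 1 array. Stat3 rose against Mock by 0.73 with oligo #1 (limma, adjusted p = 0.0373) and by 0.96 with oligo #2 (0.0066). The first of these was lost in 7 of 12 such fits, with median centring and with only the compared arrays, and the second in 0 of 12. Jund, a part of AP-1, and Ets2 changed by −0.24 and 0.26 (adjusted p = 0.403 and 0.535).

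Of 19 extracellular inducers and their receptors, 3 were called higher and 0 lower for the mean, where 1.21% of all genes were called higher, with a median of 0.17. With oligo #2 against sirEGFP 6 were higher, Osmr, Il6 and Lif with Il6st, Pdgfra and Pdgfrb, the last 3 named after their values were seen, where 1.52% of all genes were called higher. With oligo #1 against sirEGFP only Lif passed (limma, adjusted p = 0.0285), where 1.04% of all genes were called higher. That call was lost in 4 of 12 fits without 1 array and with only the compared arrays (0.127). The calls of Il6st, Pdgfra and Pdgfrb were lost in 7, 4 and 3 of the 12 fits without 1 array, and that of Il6st also with median centring, with only the compared arrays and with both controls together. Osmr, a receptor subunit for oncostatin M, stood at 8.50, 8.21 and 8.30 with oligo #1, at 9.91, 9.91 and 9.57 with oligo #2, at 8.04, 7.85 and 8.08 with sirEGFP and at 7.81, 7.45 and 7.77 in Mock cells. All knockdown arrays lay above all control arrays, and the oligo #2 arrays lay above those of oligo #1. Against sirEGFP Osmr rose by 1.81 with oligo #2 (limma, adjusted p = 8.7e-06), and its change with oligo #1 was 0.35 (0.268). For the mean Osmr rose by 1.08 ± 0.12 (0.00048). Osmr rose against Mock by 0.67 with oligo #1 (limma, adjusted p = 0.0171) and by 2.12 with oligo #2 (3.7e-06). The first of these was lost in 3 of 12 fits without 1 array and with only the compared arrays. Of the 19, 2 were called higher against Mock with oligo #1 and 5 with oligo #2, where 1.35% and 2.93% of all genes were.

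Il6, a cytokine, stood at 6.27, 6.72 and 5.998 with oligo #1, at 7.14, 6.84 and 7.37 with oligo #2, at 5.58, 5.67 and 5.24 with sirEGFP and at 5.68, 4.93 and 5.09 in Mock cells. Lif, a cytokine of the same family, stood at 6.81, 6.07 and 6.38 with oligo #1, at 7.03, 6.41 and 6.85 with oligo #2, at 5.88, 5.36 and 5.34 with sirEGFP and at 5.91, 5.79 and 5.76 in Mock cells. For both genes all 6 knockdown arrays lay above all 6 control arrays. For the mean against sirEGFP, Il6 rose by 1.23 ± 0.19 (SE, limma, adjusted p = 0.0039) and Lif by 1.07 ± 0.17 (adjusted p = 0.0051), and the call of Lif was lost without array 2 of sirEGFP (0.0506). Of the fibroblast markers, 1 was called higher for the mean, Prrx1 at 0.74. With oligo #2 against sirEGFP 3 of the 10 were called higher (1.52% of all genes), Prrx1 at 1.13 with Pdgfra and Pdgfrb. For oligo #1 minus oligo #2 those 3 were called lower (2.3% of all genes), Prrx1 at −0.78 (limma, adjusted p = 0.0040). Thy1 was called the other way, at 0.67 (0.0305), where 1.37% of all genes were called higher. Thy1 was named after its values were seen.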

How the data were processed

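Total RNA of 12 cultures was hybridised to Affymetrix arrays. The authors deposited 1 log2 expression value per probe set and array, with the scale read from the values. How these were background corrected, summarised and normalized is not given in the sources used here. Limma is named, with no version, per the submitters' processing notes. Array medians lay between 5.38 and 5.54, and the values were tested as deposited. They do not show signal over background, and 3 arrays a group set the precision.

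Gene names came from the platform annotation: 21789 probe sets had 1 symbol, 12102 had none, and 1621 had several and stayed unnamed. By Entrez identifier 21698 matched RefSeq names of GRCm38.p6, and 91 kept their annotated symbol. Where a gene had more than 1 probe set, as 999 did, the brightest on average was kept, and 19938 genes remained. The tests were two-sided, from limma 3.58.1 under R 4.3.3 (lmFit, then eBayes), with 4 group means and 8 residual degrees of freedom. The Benjamini-Hochberg adjustment ran over all genes, and genes with an adjusted p under 0.05 were called. Genes and lists were chosen with earlier results of these data known. Named were the 10 genes, Ubtf, from each other list the 3 genes with the smallest p for the mean of both siRNAs minus sirEGFP and every gene called there, and the genes most correlated with the 3 members of largest SD. Further names are marked as chosen after their values were seen.

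Replicate numbers were checked for pairing by correlating deviations from group means between same-numbered arrays over all genes. The lowest and highest r of the 3 pairs were 0.18 and 0.55 for oligo #2 and sirEGFP, and 0.12 and 0.39 for oligo #1 and oligo #2, so the numbers were taken to pair these samples, from the data and not from the labels. Even so, the values given for these comparisons are from the fit without a block unless the block is named. In each other comparison at least 1 pair was under 0.1. Alternatives were median centring, quantile normalization, no dim genes, all probe sets, the replicate block, only the compared arrays, both controls together, each array left out, and the 3 arrays farthest along the main pattern of spread left out, the last added after the data had been seen.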

Additional observations from a re-analysis of the deposited data

Results flagged for a closer look

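Several genes of the related lists differed between the 2 siRNAs against UBF, oligo #1 minus oligo #2, by the test of that difference (limma, adjusted over all genes, SE after each change). Of all genes, 1.37% were called higher and 2.3% lower there. Of 11 ADAM proteases 1 was called higher and 1 lower, and the same held for 10 genes of plasminogen activation. Of 19 inducers and receptors 0 were called higher and 4 lower, and no other related protease, partner or factor list had a call. Adam17 differed by −1.16 ± 0.12 (adjusted p = 0.00018), Osmr by −1.46 ± 0.14 (6.9e-05) and Tgfbr1, a receptor of TGF-beta, by −0.78 ± 0.14 (0.0068), and these 3 calls were kept in each of the 12 fits without 1 array. Plau differed by −0.84 ± 0.19 (adjusted p = 0.0236), Pdgfra by −0.81 ± 0.17 (0.0160), Pdgfrb by −1.33 ± 0.34 (0.0418), Adam19 by 0.77 ± 0.19 (0.0311) and Serpinb6a by 0.52 ± 0.12 (0.0291), calls lost in 4, 2, 9, 4 and 5 of those fits. Tgfbr1, Adam19 and Serpinb6a were named after their values were seen. With only the compared arrays the calls of Pdgfra, Pdgfrb and Serpinb6a were also lost, and that of Serpinb6a was lost with median centring too. Each of these calls between the siRNAs was kept with replicate number as a block. The fit that left oligo #1 with 1 array is not counted here. None of the 7 metalloproteinases and 3 TIMPs passed in this comparison, with Timp3 the nearest at −0.49 (adjusted p = 0.104), and with replicate number as a block Timp3 passed (adjusted p = 0.0274).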

How the results depend on the processing

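No scaling moved the median of all genes by more than 0.052 log2 units. Over 3930 fits of a single gene and comparison under an alternative, 3678 kept their side of the threshold and direction, 165 lost a call, 87 gained one and 0 reversed. Counts of genes called over all genes are given as alternative against main value. With replicate number as a block they were 878 against 493 for oligo #1 minus sirEGFP, 773 against 451 for oligo #2 minus sirEGFP, 789 against 385 for the mean minus sirEGFP, 838 against 549 and 1290 against 848 for oligo #1 and oligo #2 minus Mock, and 3 against 0 for sirEGFP minus Mock. Members called under the block were 3 against 0 for oligo #2 minus sirEGFP, 2 against 1 for the mean (Mmp2, adjusted p = 0.0337, beside Mmp14; 3.96% of all genes), 1 against 0 for oligo #1 minus Mock (Mmp14, adjusted p = 0.0492; 4.2% of all genes) and 1 against 0 between the siRNAs. Of same-numbered pairs of arrays, 12 of 18 correlated over 0.1, and of differently numbered pairs 7 of 36. With only the compared arrays the counts were 101, 236 and 276 for oligo #1 minus sirEGFP, the mean minus sirEGFP and oligo #1 minus Mock, and 380 against 732 between the siRNAs, with 0 members for oligo #1 minus sirEGFP and for the mean. With Mock and sirEGFP together as control they were 753, 979 and 982 for oligo #1, oligo #2 and the mean. Leaving out the 3 arrays farthest along the main pattern of spread, which left oligo #1 with 1 array, assumed to vary like the other groups, they were 255, 1049 and 793 against sirEGFP, 145 and 1314 against Mock and 211 between the siRNAs, with 3 members for oligo #2 and 2 for the mean against sirEGFP (Mmp2, adjusted p = 0.0063, beside Mmp14; 3.98% of all genes). Leaving out each array in turn gave 155 to 863, 198 to 627 and 108 to 722 genes against sirEGFP for oligo #1, oligo #2 and the mean, each lowest without array 2 of sirEGFP and highest without array 2 of oligo #1. It gave 244 to 674 and 307 to 1044 against Mock, 0 to 1 for sirEGFP minus Mock and 328 to 833 between the siRNAs. Members called ran from 0 to 1 for oligo #1 and from 0 to 2 for oligo #2 and the mean against sirEGFP, and from 0 to 1 against Mock for each siRNA. Without array 2 of oligo #1, Mmp2 passed for the mean (adjusted p = 0.0215) and for oligo #2 against sirEGFP (0.0310), and Mmp14 passed for oligo #1 against Mock (0.0423). The cause of these shifts was not tested. Fits that leave arrays out hold fewer arrays, and their counts moved both down and up.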
